A study of Homo sapiens with 34 samples.

Results

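The mid primitive streak treatment (MPS) was set against the anterior primitive streak treatment (APS) in wild-type cells of ESI017, an established human embryonic stem cell line, after 24 h of differentiation. Libraries were chosen by their labels alone, 2 for each treatment, which is 4 of the 34 libraries in the series. APS cells were given activin at 30 ng/ml with bFGF at 20 ng/ml and 4 µM of CHIR, a GSK3 inhibitor that switches on canonical Wnt signalling. MPS cells were given the same activin and bFGF together with BMP4 at 40 ng/ml, and CHIR was raised to 6 µM. The added BMP4 and the higher dose of CHIR came together, so their parts in any difference below cannot be told apart. MPS-1, MPS-2, APS-1 and APS-2 name the libraries of replicates 1 and 2.

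The series followed cells from stem cells through day 1 treatments and on into day 2 media, with RNA sequenced in bulk from every combination. In the posterior treatment (PPS) activin was left out while bFGF, BMP4 and CHIR were dosed as in MPS, and in the endoderm treatment (DE(a)) cells had activin at 100 ng/ml and CHIR at 2 µM with neither bFGF nor BMP4. On day 2, MPS and APS cells alike were moved to an endoderm medium (DE(b): activin at 100 ng/ml and the BMP receptor inhibitor LDN at 250 nM). The others were a paraxial mesoderm medium (PM: bFGF at 20 ng/ml, LDN at 250 nM and the activin receptor inhibitor A8301 at 1 µM) and a lateral mesoderm medium (LM: BMP4 at 30 ng/ml, A8301 at 1 µM and IWP2, which blocks the release of Wnt ligands, at 4 µM). The sources differ on whether PM also held CHIR. Untreated stem cells served as the control (Ctrl).

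BMP ligands bind receptors that phosphorylate SMAD1, SMAD5 and SMAD9, whereas activin and Nodal act through SMAD2 and SMAD3, and both branches share the partner SMAD4. In the primitive streak, Nodal and activin signalling is highest at the anterior end, where endoderm and axial mesoderm form, and BMP is highest at the posterior end, where lateral and extraembryonic mesoderm form. Typical genes switched on by BMP are the ID, MSX and GATA genes and feedback inhibitors such as BAMBI and SMAD6, and the CDX and HOX genes are the classical readout of posterior identity.

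Promoter sequence is given for 3 genes on which the results turn, BAMBI and HAND1, which were higher in MPS, and CYP26A1, which was lower. CYP26A1 has 2 annotated promoters, and the first listed is printed. The 250 bases upstream of the annotated start come from RefSeq on build GRCh38.p14, for BAMBI at chr10:28677271-28677520 on the plus strand, for HAND1 at chr5:154478228-154478477 on the minus strand, and for CYP26A1 at chr10:93073225-93073474 on the plus strand. Capitals mark 3 motifs on either strand: GGCGCC, a GC element that SMAD1 and SMAD5 bind, CAGAC, the SMAD box, and CTTTGAT, the core site of TCF and LEF factors.
BAMBI: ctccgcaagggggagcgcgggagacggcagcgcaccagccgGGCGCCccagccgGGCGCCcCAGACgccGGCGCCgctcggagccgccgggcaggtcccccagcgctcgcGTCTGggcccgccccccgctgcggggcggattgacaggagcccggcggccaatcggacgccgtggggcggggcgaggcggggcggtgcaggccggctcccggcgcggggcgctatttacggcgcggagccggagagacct
HAND1: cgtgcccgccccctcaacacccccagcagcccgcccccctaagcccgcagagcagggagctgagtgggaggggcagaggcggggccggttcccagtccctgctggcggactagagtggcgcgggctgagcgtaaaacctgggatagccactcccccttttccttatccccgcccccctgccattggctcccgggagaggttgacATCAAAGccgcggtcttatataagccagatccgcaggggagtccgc
CYP26A1: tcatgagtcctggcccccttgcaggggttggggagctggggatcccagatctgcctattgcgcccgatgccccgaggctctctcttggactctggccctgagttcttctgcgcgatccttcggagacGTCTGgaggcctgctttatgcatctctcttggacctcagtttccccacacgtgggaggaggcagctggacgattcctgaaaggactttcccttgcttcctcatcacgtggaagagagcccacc

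The BAMBI promoter held GGCGCC at 209, 196 and 181 bases before the start and CAGAC at 189 and 140 bases, HAND1 held CTTTGAT at 46 bases, and CYP26A1 held CAGAC at 123 bases. GGCGCC was found in 16.4% of 35116 promoters of the same length from 27305 genes, CAGAC in 38% and CTTTGAT in 2.26%. Among 449 promoters of the 260 matched genes called higher in MPS these shares were 24.7%, 41.0% and 2.0%, and among 216 promoters of the 135 matched genes called lower they were 23.6%, 35.6% and 1.85%. Among 21 promoters of 13 matched BMP response genes the shares were 23.8%, 42.9% and 0%. The share with the GC element thus lay above that of all promoters for genes of either direction. These are letter matches in a short window, given as a description.

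The 4 libraries held 20380733 to 23045722 counts assigned to genes, and all 34 held 15522780 to 23439799. A total of 3 counts, the lowest level treated as detected in a library, equalled 0.130 to 0.147 CPM in the 4 libraries, where CPM is the count of a gene scaled to a common library total. Mitochondrial genes took 4.57 to 7.69% of the counts. The label of a primitive streak was checked against its defining genes: TBXT, MIXL1 and EOMES summed to 2781 to 2955 CPM in the 4 libraries and to 1.58 and 1.86 CPM in Ctrl. Markers of definitive endoderm (SOX17, FOXA2 and HHEX) summed to 10.04 and 2.93 CPM in APS and to 0.738 and 0.196 CPM in MPS. The neural marker PAX6 had no count in any of the 4, and the endothelial and blood markers CDH5, PECAM1 and TAL1 were at or under 3 counts in all of them. In bulk RNA, a change in the number of cells that express a gene and a change in the RNA each of them holds cannot be told apart. The series describes its replicates as biological without saying whether they were separate cultures, so the p-values cover only the spread between these samples, which may be technical.

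Of 17895 gene identifiers tested with edgeR over all libraries, 524 differed between MPS and APS at an adjusted p under 0.05, a background of 2.93%. 339 of them (1.89%) were higher in MPS and 185 (1.03%) were lower, and 334 and 178 of these were protein-coding genes. Changes upward were larger, with a median log2 difference of 1.62 among genes called higher and -1.43 among genes called lower. A change of at least 4 on the log2 scale, 16-fold, was seen for 31 genes called higher and 8 called lower. Over all genes tested the median log2 difference was -0.01, and 48.0% of them had a positive value. Counts of list members below are to be read beside the 1.89% called higher and 1.03% called lower. The number called fell to 225 without APS-2, 249 without APS-1, 258 without MPS-1 and 263 without MPS-2. Log2 differences below are MPS minus APS with their standard error (SE), n = 2 libraries for each treatment. The share of all identifiers whose groups stand apart is not given, so statements below that groups did not overlap describe single genes. For genes that were called, such separation was largely set by the call and adds no support to it.

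**Figure D1:**
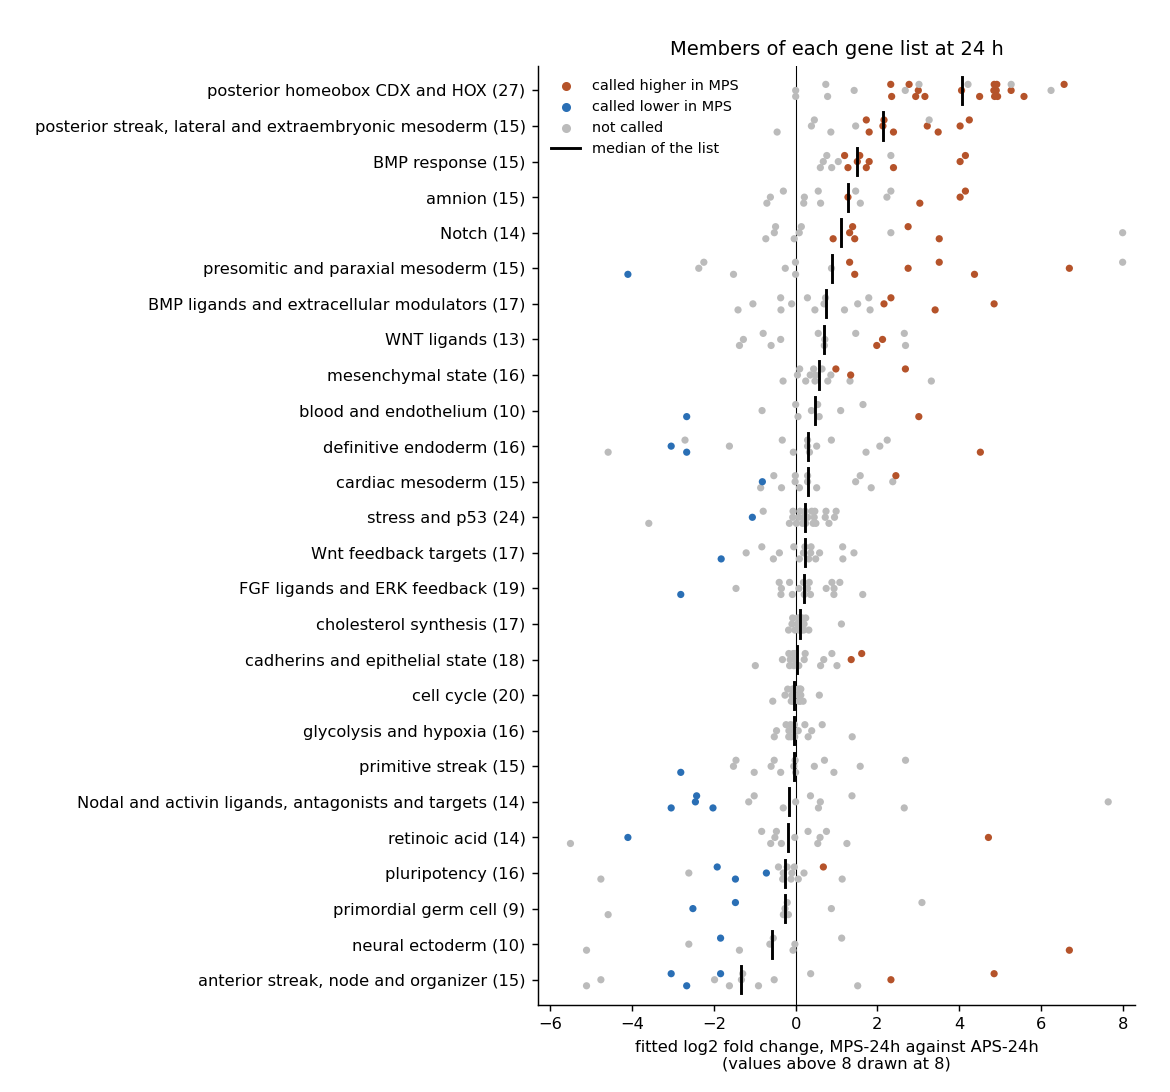
Fitted log2 fold change of MPS against APS at 24 h (horizontal axis) for every tested member of 26 gene lists (rows, with the number of identifiers tested in parentheses). Each point is a member, coloured by whether it was called higher, called lower or not called, the black tick is the list's median, and values above 8 are drawn at 8. Members of the CDX and HOX, lateral mesoderm and BMP response lists lie mostly to the right of 0, while those of the cell cycle, glycolysis and cholesterol lists gather around it.

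BMP target genes were higher in MPS. Of 15 members of the BMP response list, 9 rose and none fell, the other 6 also had positive values, and the median log2 difference was 1.51. BAMBI, a decoy receptor that dampens BMP signalling and whose promoter is printed above, was at 154 and 114 CPM in APS and 353 and 289.9 CPM in MPS, a log2 difference of 1.28 ± 0.27 (SE, adjusted p = 0.0082). The homeobox gene MSX1 stood at 136 and 136 CPM in APS against 430.5 and 506 CPM in MPS (1.80 ± 0.36, adjusted p = 0.00637). Its relative MSX2 went from 39.6 and 30.5 CPM in APS to 123 and 107 CPM in MPS (1.73 ± 0.31, adjusted p = 0.00271). For each of the 9 genes that rose, both MPS libraries lay above both APS libraries. TBX3, a T-box repressor of posterior and lateral mesoderm, was at 62.2 and 65.9 CPM in APS and 335 and 330.1 CPM in MPS (2.39 ± 0.24, adjusted p = 6.88e-06). The zinc finger factors GATA3 and GATA2 had the largest rises of the list. GATA3 was at 2.61 and 1.37 CPM in APS and 34 and 36 CPM in MPS (4.15 ± 0.42, adjusted p = 9.01e-06). GATA2 was at 1.28 and 1.19 CPM in APS and 17.1 and 22.8 CPM in MPS (4.02 ± 0.42, adjusted p = 6.88e-06).

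Among the remaining members, SMAD9, the BMP-activated SMAD that is itself a BMP target, was at 1.56 and 2.15 CPM in APS and 5.08 and 5.41 CPM in MPS (1.51 ± 0.28, adjusted p = 0.00304). ATOH8, a helix-loop-helix factor, was at 4.14 and 3.58 CPM in APS and 11.6 and 11 CPM in MPS (1.57 ± 0.31, adjusted p = 0.0054). ID proteins are the best known BMP targets, and only ID2 passed in the fit over all libraries. It was at 53 and 38.5 CPM in APS and 102 and 105 CPM in MPS (1.20 ± 0.26, adjusted p = 0.0102). ID1 was at 73.5 and 55.7 CPM in APS and 129 and 134 CPM in MPS without passing (1.04 ± 0.46, adjusted p = 0.344). Whether ID2 and ID1 differ in response was not tested. ID3, at 123 and 76.8 CPM in APS and 171 and 163 CPM in MPS, ID4, at 21.6 and 20.1 CPM in APS and 32.9 and 43.2 CPM in MPS, and the inhibitory SMAD6, at 36.9 and 47.7 CPM in APS and 60.2 and 73.6 CPM in MPS, did not pass either. SMAD7, the inhibitor that both branches induce, was at 60.6 and 70.8 CPM in APS and 95 and 102 CPM in MPS (adjusted p = 0.116). Other fits called other numbers of the list, with none lower. With no filter on low counts 14 rose, and with DESeq2 10 rose. With the replicate number as a block 10 rose, and with that block on the 8 libraries at 24 h 12 rose. With 4 libraries 6 rose, and against a fold of 2 it was 3. ID1, ID3, ID4 and SMAD6 passed under some of these fits. The number of BMP response genes called was 7 without APS-1, MPS-1 or MPS-2 and 4 without APS-2. Calls lost were those of BAMBI without MPS-1 or APS-2 (adjusted p = 0.111 and 0.173), MSX1 without MPS-2, APS-1 or APS-2 (adjusted p = 0.0524, 0.0741 and 0.0851) and MSX2 without APS-2 (adjusted p = 0.0778). Others lost were ATOH8 without APS-2 (adjusted p = 0.102), ID2 without MPS-1, MPS-2 or APS-2 (adjusted p = 0.0629, 0.0658 and 0.209) and SMAD9 without APS-1 (adjusted p = 0.0809). TBX3, GATA2 and GATA3 were called with any library left out.

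Ligands and secreted modulators of BMP followed. Of 17 identifiers tested in this list, 4 were higher in MPS, none lower, and the median log2 difference was 0.73. The cells' own BMP4 mRNA was at 40 and 27.5 CPM in APS and 205 and 92.5 CPM in MPS (2.16 ± 0.34, adjusted p = 0.000907). The other 3 that rose encode extracellular BMP-binding proteins. NOG, the antagonist Noggin, was at 0.426 and 1.14 CPM in APS and 18.1 and 27.5 CPM in MPS (4.86 ± 0.41, adjusted p = 1.21e-06), with the MPS libraries far above the APS ones. BMPER, a secreted BMP-binding regulator, was at 1.75 and 1.79 CPM in APS and 22.5 and 14.7 CPM in MPS (3.41 ± 0.58, adjusted p = 0.00122). CHRD, the antagonist Chordin made by the organizer, rose at a low level, from 0.520 and 0.504 CPM in APS to 2.26 and 2.88 CPM in MPS (2.33 ± 0.50, adjusted p = 0.00825). The call was lost for CHRD without MPS-2, APS-1 or APS-2 (adjusted p = 0.068, 0.0827 and 0.108). The groups did not overlap for any of these 4. BMP2, the other classical ligand, did not pass, at 424 and 425 CPM in APS and 345 and 308 CPM in MPS. FST, which binds activin as well as BMPs, was at 155 and 202 CPM in APS and 464 and 549 CPM in MPS (1.52 ± 0.62, adjusted p = 0.298), a wide separation of the groups that the test did not call.

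**Figure D2:**
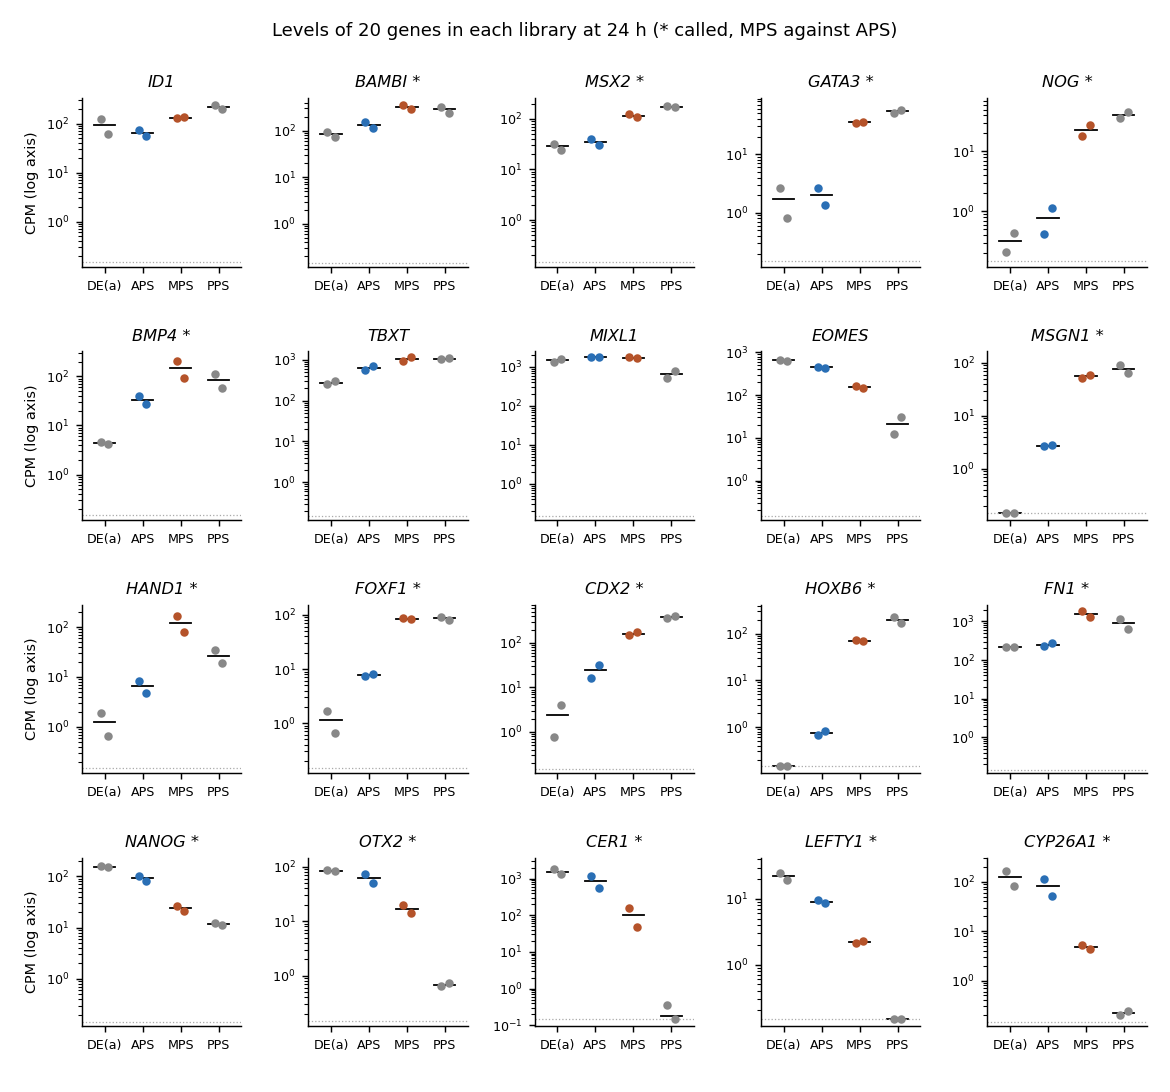
Level of selected genes (CPM, log axis) in the 24 h libraries of PPS, MPS, APS and DE(a), with 1 point for each library, a bar at the mean and an asterisk where MPS and APS differed in the test. The dotted line is the floor of 3 counts and lower values are drawn at it. BAMBI, GATA3, NOG, HAND1 and MSGN1 sit higher in both MPS libraries than in both APS libraries, and CER1, LEFTY1 and CYP26A1 sit lower.

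Wnt feedback genes report canonical Wnt activity, and both CHIR and BMP4 differed between the treatments. Of 17 tested, none rose and 1 fell, with a median log2 difference of 0.23, where 2.93% of all identifiers were called. Other fits called more members. With the replicate number as a block 2 rose and 1 fell, and with that block on the 8 libraries at 24 h 3 rose and 1 fell. With no filter on low counts 3 rose and 2 fell, and with 4 libraries 1 rose and 1 fell. AXIN2, the standard feedback target, was at 265 and 398 CPM in APS and 402 and 519 CPM in MPS (0.49 ± 0.31, adjusted p = 0.627). NKD1, another intracellular inhibitor, was at 454 and 672 CPM in APS and 1169 and 1310.2 CPM in MPS (1.15 ± 0.43, adjusted p = 0.229). The ubiquitin ligase RNF43 was at 15.9 and 28 CPM in APS and 36.9 and 59.7 CPM in MPS (1.15 ± 0.42, adjusted p = 0.209). In each of these the MPS libraries were the higher ones without reaching the threshold, while SP5 and TCF7 had overlapping groups. SP8, a zinc finger factor, was the member that fell, from 41.8 and 57.5 CPM in APS to 12.3 and 15.5 CPM in MPS (-1.82 ± 0.42, adjusted p = 0.0192). The call was lost for SP8 without MPS-1, MPS-2 or APS-2 (adjusted p = 0.234, 0.113 and 0.178).

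Of 13 identifiers of WNT ligands, 2 rose, WNT5A and WNT5B, and none fell. WNT5A, a ligand of the non-canonical branch which directs cell movement in the streak, was at 208 and 217 CPM in APS and 908 and 749 CPM in MPS (1.98 ± 0.26, adjusted p = 0.000132). WNT5B was at 84.2 and 129.6 CPM in APS and 429.8 and 493 CPM in MPS (2.13 ± 0.39, adjusted p = 0.00309). WNT11, another non-canonical ligand, did not pass (log2 difference 1.47, adjusted p = 0.587). WNT5A was called with any library left out, and the call was lost for WNT5B without APS-1 (adjusted p = 0.0809). WNT8A, at 1.14 and 3.25 CPM in APS and 13.1 and 14.4 CPM in MPS, just missed (2.66 ± 0.71, adjusted p = 0.051). WNT3, a ligand that induces the streak, is listed under 3 identifiers whose counts summed to 121 and 139 CPM in APS and 121 and 111 CPM in MPS.

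Of 14 ligands, antagonists and targets of Nodal and activin tested, none rose and 4 fell, with a median of -0.15, and activin was dosed alike in both treatments. The 4 were the antagonists CER1, LEFTY1 and LEFTY2 and the ligand GDF3, whereas FST, the activin antagonist described above, lay higher in MPS without passing. CER1, a secreted antagonist of Nodal, BMP and Wnt, fell from 1159.6 and 569.5 CPM in APS to 156 and 49.4 CPM in MPS (-3.05 ± 0.54, adjusted p = 0.00531). LEFTY1, a Nodal antagonist, was at 9.58 and 8.68 CPM in APS and 2.14 and 2.31 CPM in MPS (-2.02 ± 0.33, adjusted p = 0.0011). Its neighbour LEFTY2 was at 11.4 and 9.54 CPM in APS and 2.45 and 1.38 CPM in MPS (-2.42 ± 0.44, adjusted p = 0.00264). GDF3, a ligand of the Nodal kind, went from 12.6 and 8.56 CPM in APS to 2.14 and 1.67 CPM in MPS (-2.45 ± 0.53, adjusted p = 0.0127). For all 4 the groups stood apart. NODAL itself was at 292 and 240.4 CPM in APS and 117 and 144 CPM in MPS and did not pass (-1.01 ± 0.34, adjusted p = 0.148), nor did its co-receptor TDGF1, at 484 and 356 CPM in APS and 354 and 319 CPM in MPS. The number that fell was 3 without MPS-1, 1 without MPS-2, 2 without APS-1 and 4 without APS-2. LEFTY1 was called in each of these fits, and calls were lost for CER1 without MPS-2 or APS-1 (adjusted p = 0.101 and 0.0643), LEFTY2 without MPS-2 (adjusted p = 0.071) and GDF3 without MPS-1, MPS-2 or APS-1 (adjusted p = 0.099, 0.169 and 0.111).

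Lateral and posterior streak mesoderm genes rose as well, in a list that holds BMP4 and 4 of the BMP response genes above (MSX1, MSX2, TBX3 and GATA2). Of 15 tested, 9 rose and none fell, with a median log2 difference of 2.13, or 1.80 when low groups are set to the floor of 3 counts. HAND1, a helix-loop-helix factor of lateral and extraembryonic mesoderm, was at 8.34 and 4.71 CPM in APS and 164 and 79.6 CPM in MPS (4.25 ± 0.50, adjusted p = 7.55e-05). Its MPS libraries differed from each other but lay well above both APS libraries. FOXF1, a forkhead factor of lateral plate mesoderm, was at 7.52 and 8.01 CPM in APS and 89.5 and 82.6 CPM in MPS (3.49 ± 0.64, adjusted p = 0.00691). TBX20, a T-box factor of the later heart, was at 0.426 and 0.549 CPM in APS and 4.9 and 4.18 CPM in MPS (3.22 ± 0.69, adjusted p = 0.00849). PITX1, of the hindlimb field, was at 0.662 and 0.275 CPM in APS and 2.22 and 1.86 CPM in MPS (2.13 ± 0.59, adjusted p = 0.0414). Neither group overlapped in these 4 genes, the last 2 at levels of a few CPM. ISL1, a LIM homeobox factor of lateral mesoderm and amnion, was at 5.79 and 6.66 CPM in APS and 17 and 16.9 CPM in MPS (1.47 ± 0.58, adjusted p = 0.273). KDR, a VEGF receptor, was at 134 and 197 CPM in APS and 194 and 234 CPM in MPS. The number called was 7 without MPS-1 or MPS-2, 5 without APS-1 and 4 without APS-2. Among those lost were FOXF1 without APS-1 or APS-2 (adjusted p = 0.0949 and 0.0961), TBX20 without MPS-1, APS-1 or APS-2 (adjusted p = 0.0518, 0.111 and 0.0921) and PITX1 with any of the 4 libraries left out (adjusted p = 0.0826 to 0.443), beside MSX1 and MSX2 as given above.

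Amnion shares BMP induction with posterior mesoderm, and 4 of its 15 listed genes rose: BAMBI, GATA2 and GATA3, which the BMP list also holds, and TFAP2A, an AP-2 factor of surface ectoderm and amnion. TFAP2A was at 0.615 and 1.2 CPM in APS and 4.43 and 10.5 CPM in MPS (3.04 ± 0.50, adjusted p = 0.000713). Its groups did not overlap, and it was called with any library left out. The other amnion genes did not pass. GABRP was at 4.87 and 4.71 CPM in APS and 2.35 and 3.46 CPM in MPS, TFAP2C at 4.41 and 3.39 CPM in APS and 3.39 and 2.86 CPM in MPS and the trophoblast and amnion keratin KRT18 at 497 and 357 CPM in APS and 758 and 528 CPM in MPS. The median over the list was 1.28, or 0.61 with low groups at the floor. The defining markers of amnion (TFAP2A, GATA3, ISL1, VTCN1 and GABRP) summed to 14.0 and 14.1 CPM in APS and 58.0 and 66.9 CPM in MPS, with GATA3 the largest contributor in MPS. Those of lateral mesoderm (HAND1, ISL1 and FOXF1) summed to 21.7 and 19.4 CPM in APS and 271 and 179 CPM in MPS. Of the 5 amnion and 3 lateral markers, 2 of each list were called higher, and the part of such cells in the differences of other genes was not tested.

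Heart and blood genes were called in both directions, in lists to be read beside the 2.93% called among all identifiers. MYOCD, a coactivator of heart and smooth muscle genes, was the member of 15 cardiac identifiers that rose, from 7.1 and 4.76 CPM in APS to 38.4 and 25.6 CPM in MPS (2.45 ± 0.44, adjusted p = 0.00303). SMARCD3, a chromatin remodelling subunit of the heart, was the member that fell, from 10.3 and 9.11 CPM in APS to 5.62 and 5.3 CPM in MPS (-0.82 ± 0.19, adjusted p = 0.0203). MESP1, an early marker of cardiac precursors, was at 32 and 24.1 CPM in APS and 80.2 and 85.5 CPM in MPS and did not pass (1.58 ± 0.62, adjusted p = 0.267). Of 10 blood and endothelial genes tested, 1 rose and 1 fell, the latter being HHEX, described with the endoderm genes below. LMO2, a blood and endothelial cofactor, rose from 5.21 and 14.8 CPM in APS to 87.7 and 72 CPM in MPS (3.01 ± 0.53, adjusted p = 0.00285). The groups stood apart for MYOCD, SMARCD3, MESP1 and LMO2. RUNX1, a factor of blood formation, was at 12.6 and 12.7 CPM in APS and 34.1 and 19.4 CPM in MPS (adjusted p = 0.16). TEK, an angiopoietin receptor, was at 31.5 and 24.7 CPM in APS and 32.2 and 25.5 CPM in MPS. Calls were lost for MYOCD without APS-2 (adjusted p = 0.0863), SMARCD3 with any of the 4 libraries left out (adjusted p = 0.0602 to 0.193) and LMO2 without APS-1 (adjusted p = 0.0772).

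Of 27 CDX and HOX genes tested, 17 rose and none fell, where 1.89% of all identifiers rose. The median log2 difference was 4.06, or 3.0 with low groups at the floor. HOXC5 and HOXC8, members of this list, had no count in either treatment and could not be called. CDX2, a caudal homeobox factor that activates HOX genes, was at 16.5 and 31.8 CPM in APS and 151 and 176 CPM in MPS (2.78 ± 0.41, adjusted p = 0.0006). CDX1 was already at 73.3 and 80 CPM in APS and stood at 111 and 141 CPM in MPS without passing (0.74 ± 0.31, adjusted p = 0.303). CDX4, at a lower level, went from 1.29 and 0.458 CPM in APS to 3.2 and 5.44 CPM in MPS (2.33 ± 0.61, adjusted p = 0.034). The MPS libraries were the higher ones for each CDX gene.

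By cluster, counting every HOX identifier tested and not only the listed ones, 7 of 11 HOXA genes (chromosome 7), 9 of 10 HOXB genes (chromosome 17, 48528526 to 48728750 on GRCh38), 0 of 7 HOXC genes (chromosome 12, 53938831 to 54056030) and 1 of 9 HOXD genes (chromosome 2, 176092721 to 176190907) were called higher. Of all identifiers 1.89% were called higher. HOXC5, HOXC8 and HOXC9 had no count in the 4 libraries and passed the filter through others, so they could not be called. HOXA6, HOXA7, HOXC4, HOXC10, HOXD8 and HOXD9 had no count in APS. The counts by cluster therefore do not compare the response of the clusters. At the anterior end of the HOXB cluster, HOXB1 was at 1.66 and 1.83 CPM in APS and 15.9 and 10.5 CPM in MPS (2.94 ± 0.52, adjusted p = 0.00189). HOXB2 was at 1.23 and 0.687 CPM in APS and 35.6 and 21.8 CPM in MPS (4.92 ± 0.55, adjusted p = 1.01e-05). HOXB3 was at 3.83 and 7.19 CPM in APS and 45.2 and 42.1 CPM in MPS (3.0 ± 0.44, adjusted p = 0.000456). These genes pattern the hindbrain later in development, and both MPS libraries exceeded both APS libraries in each. HOXB6, a gene of the trunk, had the largest fitted rise of the cluster, from 0.662 and 0.824 CPM in APS to 71.4 and 69.3 CPM in MPS (6.57 ± 0.55, adjusted p = 1.98e-06). Further along, HOXB7 was at 0.332 and 0 CPM in APS and 5.27 and 4.79 CPM in MPS (4.91 ± 0.85, adjusted p = 0.000641). HOXB9 was at 1.66 and 2.7 CPM in APS and 49.2 and 48.6 CPM in MPS (4.50 ± 0.74, adjusted p = 0.00165). No group overlapped among the 9 HOXB genes called.

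In the HOXA cluster, HOXA3 was at 0.237 and 0.732 CPM in APS and 11.4 and 17.1 CPM in MPS (4.87 ± 0.74, adjusted p = 0.000613). For HOXA5, HOXA9 and HOXA10 both APS libraries were at or under 3 counts, so the ratio of counts is given with a 95% counting interval, which covers counting error only. HOXA5 went from 0.0473 and 0.0458 CPM in APS to 1.91 and 2.09 CPM in MPS, a ratio of 43.1 (11.6 to 361). HOXA9 went from 0.0473 and 0.137 CPM in APS to 1.26 and 2.01 CPM in MPS, a ratio of 17.3 (6.47 to 65.3). HOXA10 went from 0.142 and 0 CPM in APS to 1.65 and 2.7 CPM in MPS, a ratio of 30.7 (10.2 to 152). All 3 passed the test. HOXD1 was at 0.947 and 1.46 CPM in APS and 5.85 and 15.7 CPM in MPS (3.16 ± 0.52, adjusted p = 0.0022). The number of list members called was 14 without MPS-1, 13 without MPS-2 and 12 without APS-1 or APS-2. Calls were lost for CDX4 with any of the 4 libraries left out (adjusted p = 0.0546 to 0.421), HOXA5 with any of the 4 libraries left out (adjusted p = 0.0736 to 0.21) and HOXA9 with any of the 4 libraries left out (adjusted p = 0.092 to 0.26). Calls were further lost for HOXA10 without MPS-2, APS-1 or APS-2 (adjusted p = 0.113, 0.0698 and 0.234), HOXB8 without APS-2 (adjusted p = 0.0902) and HOXD1 without APS-1 (adjusted p = 0.0583), and the other 8 HOXB genes were called in each of these fits.

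Per kilobase of exon, which allows levels of different genes to be compared, HOXB6 was at a mean of 27 CPM per kilobase in MPS against 0.285 in APS. HOXB9 was at 18.9 against 0.843 CPM per kilobase and HOXB2 at 11.7 against 0.390. In PPS, where BMP4 and CHIR were as in MPS and activin was left out, the same 3 genes stood at 75.5, 56.7 and 17.8 CPM per kilobase. The MPS libraries are common to both settings, so these levels are set side by side with no test.

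**Figure D3:**
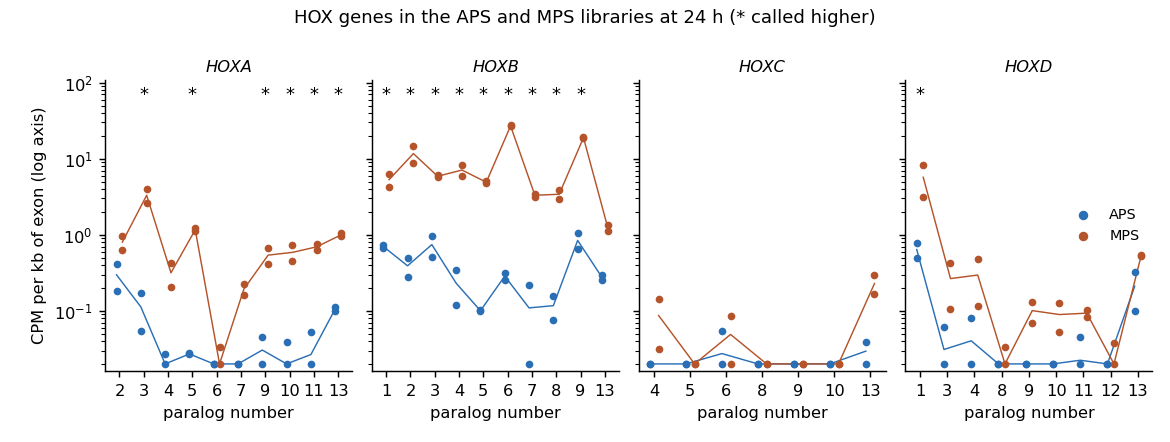
Level per kilobase of exon (CPM per kilobase, log axis) of HOX genes tested, in cluster and paralogue order, with 1 point for each APS and MPS library, lines through the means and an asterisk where a gene was called higher in MPS. Values below 0.02 are drawn at 0.02. MPS points lie above APS points along the HOXA and HOXB clusters, except for HOXA6, where 1 MPS point lies with the APS points at the bottom of the axis, and most HOXC points of both treatments lie at the bottom of the axis.

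Part of the presomitic and paraxial mesoderm genes rose. Of 15 identifiers tested, 6 rose and 1 fell, with a median of 0.88, and the markers TBX6 and MSGN1 together summed to 21.7 and 25.2 CPM in APS and 91.3 and 96.7 CPM in MPS. MSGN1, a helix-loop-helix factor of presomitic mesoderm, had the smallest p of all genes tested and was at 2.65 and 2.84 CPM in APS and 52.5 and 60.4 CPM in MPS (4.37 ± 0.24, adjusted p = 5.81e-07). PAX3, a paired-box factor of paraxial mesoderm and of the neural plate border, was at 0 and 0.275 CPM in APS and 10.3 and 19.5 CPM in MPS (6.70 ± 0.91, adjusted p = 4.03e-05). TBX6, which works with MSGN1 in the same tissue, was at 19.1 and 22.3 CPM in APS and 38.8 and 36.3 CPM in MPS and just missed (0.88 ± 0.24, adjusted p = 0.0525). The MPS libraries were above the APS libraries in all 3 of these genes.

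Notch pathway genes overlapped with that list, since the segmentation clock of presomitic mesoderm runs on Notch. Of 14 identifiers tested, 6 rose and none fell, with a median of 1.12. HES7, the repressor that drives the clock, was at 0.142 and 0.320 CPM in APS and 2.97 and 2.4 CPM in MPS (3.51 ± 0.63, adjusted p = 0.000485). The ligand JAG1 was at 28.5 and 29.9 CPM in APS and 53.8 and 54.9 CPM in MPS (0.92 ± 0.16, adjusted p = 0.00165). The ligand DLL3 was at 28.6 and 17.9 CPM in APS and 67.4 and 57.4 CPM in MPS (1.44 ± 0.34, adjusted p = 0.02). LFNG, which modifies Notch receptors, was at 6.69 and 4.44 CPM in APS and 15.3 and 12.1 CPM in MPS (1.32 ± 0.34, adjusted p = 0.0336). In each of these genes the groups stood apart. DLL1 is listed under 2 identifiers whose summed level was 7.60 and 8.79 CPM in APS and 59.9 and 68.3 CPM in MPS, and 1 of the 2 passed (2.75 ± 0.63, adjusted p = 0.0225). HEY2, a Notch-induced repressor, was at 10.9 and 8.47 CPM in APS and 29.5 and 20.7 CPM in MPS (1.39 ± 0.37, adjusted p = 0.0479). The receptors NOTCH1 at 109.6 and 146 CPM in APS and 83.8 and 96.2 CPM in MPS and NOTCH2 at 139 and 148 CPM in APS and 138 and 139 CPM in MPS did not pass. The Notch count was 3 without MPS-1 or APS-1 and 2 without MPS-2 or APS-2, and the presomitic count was 4 without MPS-1 or APS-1 and 3 without MPS-2 or APS-2. Calls were lost for DLL3 without MPS-1, MPS-2 or APS-2 (adjusted p = 0.159, 0.0554 and 0.314), LFNG with any of the 4 libraries left out (adjusted p = 0.0671 to 0.406), DLL1 without MPS-2, APS-1 or APS-2 (adjusted p = 0.173, 0.183 and 0.175) and HEY2 with any of the 4 libraries left out (adjusted p = 0.0728 to 0.407).

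Transcripts of 2 retinoic acid enzymes changed in opposite directions. ALDH1A2, the enzyme that makes retinoic acid in mesoderm, was at 1.51 and 1.28 CPM in APS and 50.8 and 21.7 CPM in MPS (4.72 ± 0.54, adjusted p = 1.94e-05). CYP26A1, the enzyme that breaks retinoic acid down and whose promoter is printed above, was at 116 and 52.1 CPM in APS and 5.28 and 4.32 CPM in MPS (-4.11 ± 0.55, adjusted p = 0.000258). Neither pair of groups overlapped, and both calls held with any library left out. These were the member that rose and the member that fell among 14 tested, whose median was -0.19. Of the same enzyme families, ALDH1A1 (log2 difference -0.83), ALDH1A3 (-0.61) and CYP26B1 (1.25) lay the other way without passing. CYP26C1 (-5.51) lay the same way as CYP26A1 and did not pass either. The receptors RARA, at 27.2 and 33.7 CPM in APS and 20.5 and 21.9 CPM in MPS, and RARG, at 27.3 and 25.8 CPM in APS and 32.7 and 31.9 CPM in MPS, did not pass.

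Of 15 identifiers in the primitive streak list, none rose and 1 fell, with a median of -0.05, where 2.93% of all identifiers were called. These counts depended on the fit. With no filter on low counts 4 rose and 4 fell, and with 4 libraries 1 rose and 2 fell. With the replicate number as a block 0 rose and 1 fell, and with that block on the 8 libraries at 24 h 3 rose and 3 fell. TBXT, the T-box factor Brachyury, was at 571 and 716 CPM in APS and 920.4 and 1152 CPM in MPS (0.70 ± 0.39, adjusted p = 0.537). MIXL1, a homeobox factor of the streak, was at 1745 and 1755 CPM in APS and 1796 and 1658 CPM in MPS. EOMES, a T-box factor needed for endoderm, was at 465 and 429.9 CPM in APS and 163 and 145 CPM in MPS (-1.52 ± 0.55, adjusted p = 0.213). Its groups stood apart without passing. FGF17 was the member that fell, from 296 and 259 CPM in APS to 36 and 42.1 CPM in MPS (-2.81 ± 0.62, adjusted p = 0.0178). It was also the member of 19 FGF ligands and ERK feedback genes that fell, with none rising. The call was lost for FGF17 with any of the 4 libraries left out (adjusted p = 0.0581 to 0.198). FGF8 was at 16 and 16.6 CPM in APS and 4.65 and 7.12 CPM in MPS, and FGF4 at 68.3 and 70.6 CPM in APS and 96.2 and 167 CPM in MPS, neither of which passed.

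In the list of the anterior streak, node and organizer, 3 of 15 identifiers fell and 2 rose, with a median of -1.33, or -0.61 with low groups at the floor. CER1 fell as given above, and CHRD and NOG, organizer antagonists of BMP, were the members that rose. OTX2, a homeobox factor of anterior identity, was at 71.8 and 50.7 CPM in APS and 19.6 and 14.2 CPM in MPS (-1.84 ± 0.47, adjusted p = 0.0388). HHEX, a homeobox factor of anterior endoderm, was at 0.993 and 0.549 CPM in APS and 0.174 and 0.0491 CPM in MPS (-2.67 ± 0.79, adjusted p = 0.0446). Neither gene's groups overlapped. GSC, the organizer homeobox factor Goosecoid, was at 39.8 and 42.6 CPM in APS and 30.1 and 26.4 CPM in MPS and did not pass. The number that fell was 1 without MPS-1 or APS-2 and 0 without MPS-2 or APS-1. Those lost were OTX2 with any of the 4 libraries left out (adjusted p = 0.0798 to 0.34) and HHEX with any of the 4 libraries left out (adjusted p = 0.0665 to 0.363).

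Of 16 endoderm identifiers, 2 fell (CER1 and HHEX) and 1 rose, where 2.93% of all identifiers were called. The median was 0.29, or 0.15 with low groups at the floor. The member that rose was CXCR4, a chemokine receptor used as a surface marker of definitive endoderm and also expressed by migrating mesoderm, from 2.79 and 1.83 CPM in APS to 69.4 and 35 CPM in MPS (4.52 ± 0.60, adjusted p = 0.000172). The MPS libraries were both above the APS ones, and the call held with any library left out. SOX17, the endoderm SRY-box factor, was at 8.62 and 1.79 CPM in APS and 0.260 and 0.147 CPM in MPS, with an uncertain log2 difference of -4.59 ± 2.07 (adjusted p = 0.168). GATA6, shared by endoderm and heart, was at 229.9 and 236 CPM in APS and 315 and 248 CPM in MPS and did not pass.

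Of 16 pluripotency identifiers, 3 fell and 1 rose, with a median of -0.26, where 2.93% of all identifiers were called. NANOG was at 103 and 81.1 CPM in APS and 26.9 and 21.1 CPM in MPS (-1.92 ± 0.45, adjusted p = 0.0243). PRDM14 was at 8.38 and 6.73 CPM in APS and 2.99 and 2.36 CPM in MPS (-1.47 ± 0.34, adjusted p = 0.0171). The DNA methyltransferase DNMT3B was at 557 and 647 CPM in APS and 353 and 371 CPM in MPS (-0.72 ± 0.17, adjusted p = 0.0208). SALL4, a zinc finger factor of stem cells and mesoderm, rose from 273 and 355 CPM in APS to 459 and 534 CPM in MPS (0.68 ± 0.13, adjusted p = 0.00414). The groups were separate in these 4 genes. POU5F1, whose 4 identifiers summed to 683 and 644 CPM in APS and 595 and 692 CPM in MPS, overlapped between the treatments. KIT, a receptor of germ and blood precursors, fell together with PRDM14 among 9 germ cell genes, from 12.9 and 18.1 CPM in APS to 2.13 and 3.24 CPM in MPS (-2.51 ± 0.54, adjusted p = 0.0108). The germ cell markers NANOS3, TFAP2C, SOX17 and PRDM1 summed to 16.7 and 7.28 CPM in APS and 8.78 and 8.04 CPM in MPS. Of 10 neural genes, PAX3 rose and OTX2 fell. Calls were lost for NANOG with any of the 4 libraries left out (adjusted p = 0.0666 to 0.245), PRDM14 without MPS-1, MPS-2 or APS-1 (adjusted p = 0.0799, 0.213 and 0.148), DNMT3B with any of the 4 libraries left out (adjusted p = 0.0603 to 0.235), SALL4 without MPS-2 or APS-1 (adjusted p = 0.0758 and 0.0949) and KIT without MPS-1, MPS-2 or APS-2 (adjusted p = 0.186, 0.068 and 0.101).

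The question of cadherin switching, which the series names, was taken up with lists of epithelial and mesenchymal genes. CDH1, E-cadherin, was at 149 and 194 CPM in APS and 264 and 362 CPM in MPS and did not pass (0.89 ± 0.26, adjusted p = 0.0718), although DESeq2 called it (adjusted p = 0.02). CDH2, N-cadherin, was at 529 and 555 CPM in APS and 578 and 526 CPM in MPS, with overlapping groups. Among 18 epithelial identifiers 2 rose and none fell, where 2.93% of all identifiers were called. The keratin KRT19 was at 112 and 89.3 CPM in APS and 225 and 287 CPM in MPS (1.36 ± 0.30, adjusted p = 0.0117). The claudin CLDN4 was at 2.22 and 1.33 CPM in APS and 5.0 and 5.79 CPM in MPS (1.62 ± 0.40, adjusted p = 0.0263). Among 16 mesenchymal genes 3 rose and none fell, with a median of 0.57. FN1, the matrix protein fibronectin, was at 228 and 268 CPM in APS and 1871 and 1276 CPM in MPS (2.68 ± 0.28, adjusted p = 1.07e-05). SNAI1, a repressor of CDH1, was at 48.7 and 49.4 CPM in APS and 134 and 112 CPM in MPS (1.35 ± 0.23, adjusted p = 0.00165). The membrane metalloproteinase MMP14 was at 201 and 192 CPM in APS and 426 and 340.3 CPM in MPS (0.98 ± 0.22, adjusted p = 0.0145). Members of both lists were thus called higher in MPS. All 5 of these genes had separate groups, which their calls largely set. The epithelial count was 1 without MPS-1 and 0 without any other library, and the mesenchymal count was 4 without MPS-2 and 2 without any other. The call was lost for KRT19 without MPS-2, APS-1 or APS-2 (adjusted p = 0.131, 0.0583 and 0.192), CLDN4 with any of the 4 libraries left out (adjusted p = 0.0616 to 0.36) and MMP14 without MPS-1, APS-1 or APS-2 (adjusted p = 0.213, 0.0853 and 0.15).

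Housekeeping lists are to be read beside the 2.93% called among all identifiers, a share from which lists of this size cannot be told apart. None of 20 cell cycle genes, 16 genes of glycolysis and hypoxia or 17 identifiers of cholesterol synthesis was called. Their medians were -0.03, -0.04 and 0.10. Of 24 stress and p53 identifiers, GADD45B fell, from 33.6 and 35.3 CPM in APS to 17.9 and 14.8 CPM in MPS (-1.06 ± 0.28, adjusted p = 0.047), a call lost for GADD45B with any of the 4 libraries left out (adjusted p = 0.156 to 0.368). The immediate early gene EGR1 differed more between replicates than between treatments, at 19.3 and 217 CPM in APS and 67.3 and 347 CPM in MPS.

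Beyond the lists, further genes were named by the size of their change or by their p-value. RASGRP1, an activator of RAS, rose from 1.37 and 1.42 CPM in APS to 33.9 and 18.4 CPM in MPS (4.24 ± 0.43, adjusted p = 6.88e-06). ARID5B, a DNA-binding coregulator, was at 1.32 and 1.6 CPM in APS and 17.2 and 35.1 CPM in MPS (4.16 ± 0.40, adjusted p = 6.88e-06). SALL1, a zinc finger factor, was at 108 and 146 CPM in APS and 380.1 and 393 CPM in MPS (1.62 ± 0.17, adjusted p = 6.88e-06). GABARAPL1, a protein of autophagosomes, had a modest but tight rise, from 88.5 and 110.2 CPM in APS to 252 and 251 CPM in MPS (1.36 ± 0.11, adjusted p = 9.21e-07). Among genes that fell, CALCR, the calcitonin receptor, was at 80.9 and 85.5 CPM in APS and 8.32 and 12.8 CPM in MPS (-2.96 ± 0.41, adjusted p = 0.000302). ADGRG2, an adhesion G protein-coupled receptor, was at 19.3 and 14.7 CPM in APS and 2.21 and 1.18 CPM in MPS (-3.29 ± 0.41, adjusted p = 7.55e-05). MYCT1 was at 30.4 and 32.2 CPM in APS and 3.52 and 4.6 CPM in MPS (-2.93 ± 0.35, adjusted p = 6.88e-05). In each of these genes both libraries of a treatment lay on the same side of both libraries of the other. Genes beyond the lists were named only if they changed in the same direction in both replicate numbers. Their separation was therefore largely set by the choice.

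The gene with the smallest p of those that fell was ACADSB, a mitochondrial acyl-CoA dehydrogenase, at 30.9 and 34.7 CPM in APS and 9.8 and 8.52 CPM in MPS (-1.82 ± 0.17, adjusted p = 1.98e-06). TENM4, a teneurin cell surface protein, was at 95.6 and 126 CPM in APS and 24.3 and 22.3 CPM in MPS (-2.23 ± 0.28, adjusted p = 6.88e-05). MAML3, a coactivator of Notch, was at 30.4 and 40.7 CPM in APS and 10.04 and 12.6 CPM in MPS (-1.64 ± 0.20, adjusted p = 3.55e-05). STARD13, a GTPase-activating protein, went from 19.4 and 15.1 CPM in APS to 2.93 and 1.67 CPM in MPS (-2.87 ± 0.41, adjusted p = 0.000371). ZNF608 went from 46.4 and 47 CPM in APS to 15.7 and 10.8 CPM in MPS (-1.79 ± 0.21, adjusted p = 2.42e-05). HHLA1 went from 13.6 and 12.8 CPM in APS to 2.08 and 2.01 CPM in MPS (-2.66 ± 0.43, adjusted p = 0.00122). NWD2 went from 11.2 and 18.8 CPM in APS to 2.52 and 1.47 CPM in MPS (-2.88 ± 0.70, adjusted p = 0.0324). The groups of these genes did not overlap either. Of these 14 genes, 13 were called with any library left out, and the call was lost for NWD2 with any of the 4 libraries left out (adjusted p = 0.0641 to 0.313).

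The PPS and DE(a) libraries at 24 h, which the MPS and APS comparison does not use, also differ by the presence of BMP4 and a higher dose of CHIR, but activin and bFGF differ between them as well. Of the 17895 identifiers, 20.9% were called between them, 10.7% higher in PPS and 10.2% lower, and the number called fell from 3749 to 2190 without DE(a)-1 and 2317 without PPS-2. Of the 339 genes called higher in MPS than in APS, 306 (90.3%) were called higher in PPS than in DE(a) and 2 (0.59%) were called lower. Of the 185 called lower, 167 (90.3%) were lower in PPS and 0 were higher. The 2 in the opposite direction, singled out here after their values were seen, were CHN1 (0.76 at MPS against APS and -0.44 at PPS against DE(a)) and EGLN3 (1.35 and -0.92). All 27 CDX and HOX genes of the list were higher in PPS than in DE(a), with HOXB6 at 0 and 0 CPM in DE(a) and 223 and 169.7 CPM in PPS. Of the 15 identifiers of the anterior streak, node and organizer, 10 were lower in PPS and 3 were higher, and of the 15 presomitic identifiers 7 were higher and 4 were lower. CER1 was at 1795 and 1319.8 CPM in DE(a) and 0.346 and 0 CPM in PPS and CYP26A1 at 168 and 82.4 CPM in DE(a) and 0.198 and 0.241 CPM in PPS. Some genes had their highest mean in MPS among the 4 treatments, with no test: HAND1 was at 35 and 18.8 CPM in PPS, ALDH1A2 at 9.7 and 6.56 CPM and FN1 at 1166 and 651 CPM, below the MPS values given above.

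Next, the persistence of the difference was followed into day 2, when MPS and APS cells had been in the same medium for a further 24 h. The number of identifiers called was 235 (1.31%) after DE(b), 80 (0.447%) after PM and 679 (3.79%) after LM. Of the 339 genes higher in MPS at 24 h, 62 (18.3%) were higher after DE(b), where 0.905% of all identifiers were, 18 (5.31%) after PM, where 0.196% were, and 35 (10.3%) after LM, where 1.75% were. Of the 185 lower at 24 h, 12 (6.49%), 17 (9.19%) and 39 (21.1%) were lower after DE(b), PM and LM, against 0.408%, 0.251% and 2.05% of all. Calls in the opposite direction were also made: of the 339, 4 (1.18%), 0 and 14 (4.13%) were lower after DE(b), PM and LM, and of the 185, 1, 1 and 5 were higher. A single gene kept its call in the same direction after all 3 media, PRSS23, a serine protease named after its values were seen, which was at 8.75 and 6.77 CPM in APS and 86.9 and 120 CPM in MPS at 24 h (3.75 ± 0.40, adjusted p = 1.97e-05). The day 2 values of PRSS23 and its calls with a library left out are not given, so its place may rest on single libraries. 241 of the 339 and 129 of the 185 were called in the same direction after none of the media. Counts in the media moved with single libraries, where MPS-DE(b)-1 names replicate 1 of cells moved from MPS to DE(b). After DE(b) the count was 92 and 104 without MPS-DE(b)-1 and MPS-DE(b)-2 and 67 and 58 without APS-DE(b)-1 and APS-DE(b)-2. After PM it was 24 without MPS-PM-1, 12 without MPS-PM-2 and 13 without APS-PM-1, and after LM it was 159 without MPS-LM-2 and 153 without APS-LM-1.

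The change of the difference from 24 h to day 2 was tested as an interaction, which shares the 24 h libraries with the choice of these genes. It was called for 76 identifiers (0.425%) with DE(b), 54 (0.302%) with PM, of which 44 were negative (0.246%), and 298 (1.67%) with LM, of which 198 were negative (1.11%). Of the 339 genes higher at 24 h the difference had changed for 34, 39 and 118, and of the 185 lower for 16, 8 and 27. Leaving out any of the libraries concerned gave 39 to 53 calls with DE(b), 19 to 42 with PM and 118 to 379 with LM, the lowest without MPS-DE(b)-1, without MPS-PM-1 or APS-2, and without APS-LM-1.

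**Figure D4:**
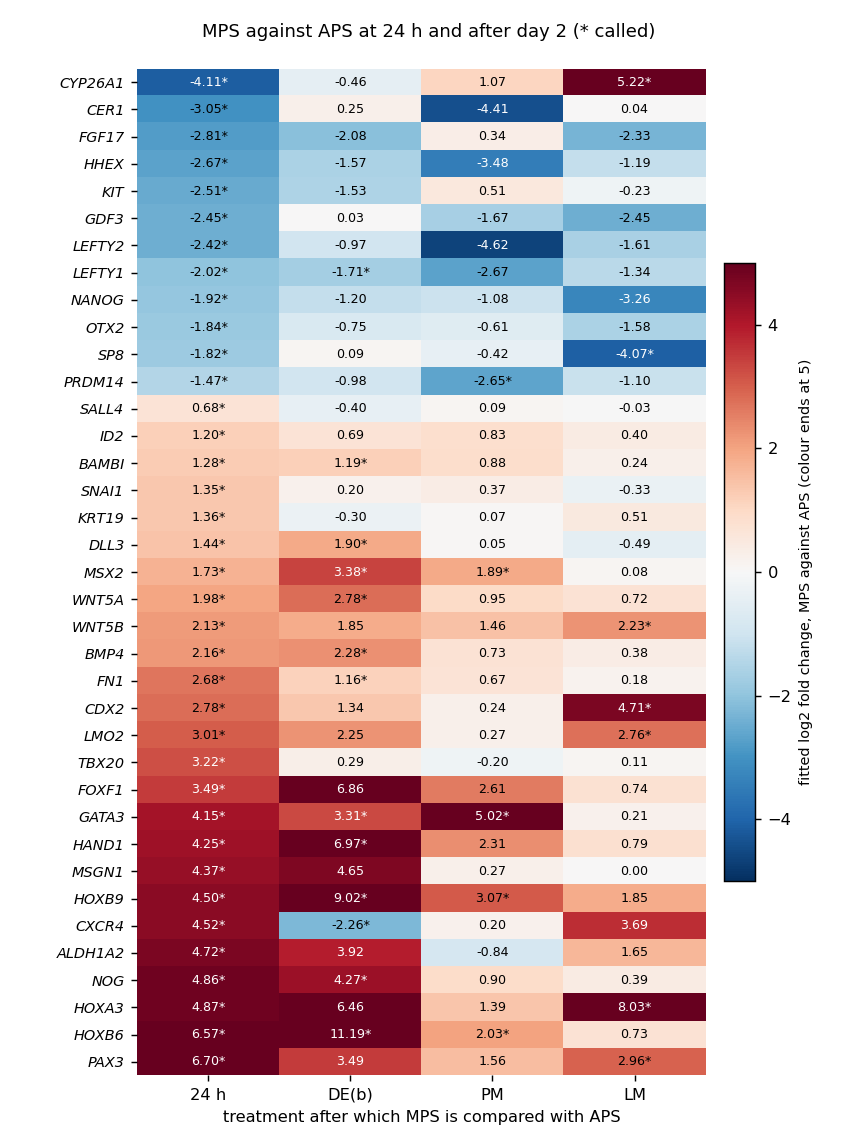
Fitted log2 difference of MPS minus APS (colour, ending at 5 in either direction) for selected genes (rows) at 24 h and after each day 2 medium (columns). An asterisk marks a call at adjusted p under 0.05. Every 24 h cell is called, as the genes were taken from those calls, while fewer are called in the later columns, and CXCR4 in DE(b) and CYP26A1 in LM have the opposite sign. Where a group had no counts, as for HOXB6 in DE(b), the fitted value depends on the prior count.

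Of the 15 BMP response genes, 7 were higher in cells from MPS after DE(b), 2 after PM and 1 after LM. After DE(b), GATA3 was at 0.827 and 0.543 CPM in cells from APS and 7.97 and 5.67 CPM in cells from MPS (3.31 ± 0.54, adjusted p = 0.001). After PM it was at 0.239 and 0.0853 CPM in cells from APS and 5.86 and 4.77 CPM in cells from MPS (5.02 ± 0.83, adjusted p = 0.000409). After LM it was at 38.7 and 50.9 CPM in cells from APS and 36.2 and 63.1 CPM in cells from MPS, groups that overlapped, and the change of its difference from 24 h was -3.95 ± 0.56 (adjusted p = 0.00053). HAND1 was at 0.276 and 0.0987 CPM in cells from APS and 27.8 and 19.9 CPM in cells from MPS after DE(b) (6.97 ± 1.24, adjusted p = 6.36e-05). In LM, where its level was 806 and 1528 CPM in cells from APS and 1789.5 and 2127 CPM in cells from MPS, its difference did not pass and had changed by -3.46 ± 0.69 (adjusted p = 0.0107). NOG followed, with 0.110 and 0.247 CPM in cells from APS and 3.61 and 3.69 CPM in cells from MPS after DE(b) (4.27 ± 0.63, adjusted p = 0.000118). Its level was 0.526 and 0.341 CPM in cells from APS and 1.14 and 0.502 CPM in cells from MPS after PM. It was at 29.6 and 38 CPM in cells from APS and 33 and 52.6 CPM in cells from MPS after LM, and its difference had changed by -3.95 ± 0.67 for PM (adjusted p = 0.0116) and -4.46 ± 0.54 for LM (adjusted p = 0.000134). TBX3 was at 7.59 and 10.7 CPM in cells from APS and 24.5 and 26.8 CPM in cells from MPS after DE(b) (1.48 ± 0.26, adjusted p = 0.00302). It was at 277 and 311 CPM in cells from APS and 462 and 436 CPM in cells from MPS after LM, a change of -1.74 ± 0.34 from 24 h (adjusted p = 0.0079). After DE(b) the calls were lost for GATA3 without APS-DE(b)-2 (adjusted p = 0.057) and TBX3 without APS-DE(b)-1 (adjusted p = 0.105), and the calls of a change were lost for HAND1 without MPS-1 or APS-2 (adjusted p = 0.0749 and 0.0785) and NOG without MPS-PM-2, APS-PM-1 or APS-1 (adjusted p = 0.058, 0.119 and 0.0525).

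WNT5A, BMP4 and LEFTY1 were called in the same direction after DE(b) as at 24 h. WNT5A was at 14 and 14.9 CPM in cells from APS and 99.6 and 99.2 CPM in cells from MPS (2.78 ± 0.27, adjusted p = 1.78e-05). BMP4 was at 45 and 37.1 CPM in cells from APS and 228 and 173 CPM in cells from MPS (2.28 ± 0.34, adjusted p = 0.0011). LEFTY1, a target of the activin given in this medium, was at 812 and 952 CPM in cells from APS and 226 and 314 CPM in cells from MPS (-1.71 ± 0.27, adjusted p = 0.00174). Groups did not overlap for any of the 3, and calls were lost for BMP4 without APS-DE(b)-2 (adjusted p = 0.0563) and LEFTY1 without MPS-DE(b)-1 (adjusted p = 0.0738). FN1 was at 506 and 592 CPM in cells from APS and 1159 and 1313 CPM in cells from MPS after DE(b) (1.16 ± 0.28, adjusted p = 0.0384), a call lost for FN1 with any of the 4 libraries left out (adjusted p = 0.147 to 0.363). Its difference had changed by -2.01 ± 0.39 in PM (adjusted p = 0.0246) and by -2.50 ± 0.39 in LM (adjusted p = 0.0012). The call for PM was lost for FN1 without MPS-PM-1, MPS-PM-2, APS-PM-1, MPS-1, APS-1 or APS-2 (adjusted p = 0.107, 0.134, 0.102, 0.17, 0.148 and 0.11).

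Between 24 h and PM the difference changed for 3 of 15 presomitic identifiers and 6 of 27 CDX and HOX genes. MSGN1 was at 60.8 and 49.7 CPM in cells from APS and 68.8 and 63.5 CPM in cells from MPS after PM, close to its MPS level at 24 h, and its difference had changed by -4.11 ± 0.33 (adjusted p = 1.54e-05). It had no count in either after LM. ALDH1A2 after PM was at 327 and 495 CPM in cells from APS and 194 and 263 CPM in cells from MPS, which was not called (-0.84 ± 0.42, adjusted p = 0.863), a change of -5.55 ± 0.69 (adjusted p = 0.000313). HOXB6 was at 6.65 and 8.76 CPM in cells from APS and 33.4 and 29.4 CPM in cells from MPS after PM (2.03 ± 0.40, adjusted p = 0.0325), a call lost for HOXB6 with any of the 4 libraries left out (adjusted p = 0.138 to 0.403). It was at 64.7 and 113 CPM in cells from APS and 126 and 161 CPM in cells from MPS after LM. Its difference had changed by -4.54 ± 0.68 in PM (adjusted p = 0.00495) and -5.84 ± 0.66 in LM (adjusted p = 0.000145). After DE(b) it had no count in cells from APS and was at 13.5 and 16.7 CPM in cells from MPS. CDX2 differed between the media, with 166 and 194 CPM in cells from APS and 179 and 243 CPM in cells from MPS after PM and 0.722 and 2.15 CPM in cells from APS and 29 and 43.5 CPM in cells from MPS after LM (4.71 ± 0.53, adjusted p = 2.6e-05). In the list of CDX and HOX genes, 9 of 27 were higher in cells from MPS after DE(b), 4 after PM and 11 after LM.

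Among the genes called in the opposite direction in a day 2 medium were CXCR4 and CYP26A1. CXCR4 was at 105 and 125 CPM in cells from APS and 18.6 and 29.7 CPM in cells from MPS after DE(b) (-2.26 ± 0.52, adjusted p = 0.0364), the reverse of 24 h, and the change of the difference was -6.78 ± 0.80 (adjusted p = 0.000227). The call within DE(b) was lost for CXCR4 with any of the 4 libraries left out (adjusted p = 0.112 to 0.396), and the change was called with any library left out. After PM it was at 232 and 266 CPM in cells from APS and 234 and 335 CPM in cells from MPS, a change of -4.31 ± 0.79 (adjusted p = 0.0145) that was lost for CXCR4 without MPS-PM-1, MPS-PM-2, MPS-1, APS-1 or APS-2 (adjusted p = 0.107, 0.0559, 0.0939, 0.0681 and 0.148). CYP26A1 was at 0.206 and 1.07 CPM in cells from APS and 19.5 and 26.5 CPM in cells from MPS after LM (5.22 ± 0.84, adjusted p = 0.000266). The change was 9.33 ± 1.01 (adjusted p = 2.22e-05), called with any library left out. After DE(b), where it was abundant in both at 984 and 1093 CPM in cells from APS and 639.8 and 877 CPM in cells from MPS, the change was 3.65 ± 0.75 (adjusted p = 0.0312) and was lost for CYP26A1 without MPS-DE(b)-1, MPS-DE(b)-2, APS-DE(b)-1, APS-DE(b)-2, MPS-1, MPS-2 or APS-1 (adjusted p = 0.0598, 0.132, 0.147, 0.167, 0.128, 0.209 and 0.156).

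For GABARAPL1 and ACADSB, both among the smallest p-values at 24 h, the difference did not pass in any of the 3 media. GABARAPL1 was at 124 and 131 CPM in cells from APS and 107 and 106 CPM in cells from MPS after DE(b). It was at 41.3 and 44.9 CPM in cells from APS and 38 and 34.2 CPM in cells from MPS after PM. After LM the values were 65.4 and 62.6 CPM in cells from APS and 62.5 and 59.8 CPM in cells from MPS. Its changes were -1.63 ± 0.16, -1.61 ± 0.16 and -1.37 ± 0.16 (adjusted p = 3.15e-05, 1.54e-05 and 0.000119). ACADSB was at 22.1 and 19 CPM in cells from APS and 21 and 22.8 CPM in cells from MPS after DE(b). It was at 15.8 and 18.5 CPM in cells from APS and 16.9 and 16.7 CPM in cells from MPS after PM. After LM the values were 37.6 and 25.1 CPM in cells from APS and 23.6 and 21.4 CPM in cells from MPS. The changes for ACADSB were 1.91 ± 0.23, 1.80 ± 0.24 and 1.39 ± 0.23 (adjusted p = 0.000227, 0.000597 and 0.00217), each called with any library left out.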

How the data were processed

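The deposited tables hold estimated counts (expected counts) per gene, which the authors made, per their processing notes, with Salmon 1.10.2 and R 4.4.2 on GRCh38, a table for each replicate number. Libraries were poly(A)-selected and stranded. The estimated counts were rounded to whole numbers. Identifiers under which every library was low were removed with filterByExpr, which left 17895 of 37951. Libraries were scaled by TMM, and a mean was fitted for each of 17 conditions over 34 libraries in edgeR 4.0.16 (R 4.3.3), so that all conditions shared the estimate of spread. Contrasts were tested by quasi-likelihood with Benjamini-Hochberg adjustment over all identifiers, and called at an adjusted p under 0.05. CPM values are counts over the library total, with no SD where both values are printed. In simulated counts with 200 changed genes, run for the MPS and APS contrast, 56% were recovered at 1 log2 unit and 94% at 2. Among the unchanged genes 4 were called. The changed genes were drawn only from those well above the floor, so these shares do not hold for genes at low levels. Groups came from the sample labels. Symbols and positions were matched to GENCODE 44 for 34979 identifiers, and promoters came from RefSeq. Alternatives were DESeq2 1.42.0, other scaling, no filter, a fold threshold, a replicate block, fewer libraries and each library left out. Named genes are members of 26 lists, the 12 largest rises and the 12 largest falls where MPS or APS averaged 10 CPM or more, and the 6 smallest p-values in each direction. Those named by size or p-value also had to be called and to change in the same direction in both replicate numbers. The contrast, lists and genes were chosen with earlier results of these data known. Counting intervals cover counting error only. A gene included in the counts is not reported here by itself.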

Additional observations from a re-analysis of the deposited data

Results flagged for a closer look

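The difference between MPS and APS changed from 24 h to a day 2 medium, by the interaction test in edgeR at an adjusted p under 0.05, for the 12 genes here, as log2 differences after the medium minus those at 24 h. The change was positive for ACADSB, at 1.91 with DE(b), 1.80 with PM and 1.39 with LM, and for CYP26A1, at 3.65 with DE(b) and 9.33 with LM, and both of these genes had been lower in MPS at 24 h. It was negative for 10 genes that had been higher at 24 h. With DE(b) it was -6.78 for CXCR4 and -1.63 for GABARAPL1. With PM it was -5.55 for ALDH1A2, -4.31 for CXCR4, -2.01 for FN1, -1.61 for GABARAPL1, -4.54 for HOXB6, -4.11 for MSGN1 and -3.95 for NOG. With LM it was -2.50 for FN1, -1.37 for GABARAPL1, -3.95 for GATA3, -3.46 for HAND1, -5.84 for HOXB6, -4.46 for NOG and -1.74 for TBX3. The 24 h libraries enter both the choice of these genes and the change.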

How the results depend on the processing

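Between MPS and APS at 24 h, 524 identifiers were called. With no filter on low counts the number was 1144, with DESeq2 809, against a fold of 2 it was 81, with 8 libraries in the fit 333 and with 4 libraries 267, and it was 225 to 263 with a library left out. DESeq2 shared 518 of the 524 calls and the fit with 4 libraries 209. Of 84 named genes that were called, none changed direction under the 12 alternatives, 34 were called under each of them, and 41 lost the call with at least 1 library left out. Counts over the members of each list with a library left out were added after seeing the data.

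Between PPS and DE(a) the count of 3749 became 827 against a fold of 2, 2439 with 4 libraries and 2190 to 3323 with a library left out. After DE(b), PM and LM, the counts of 235, 80 and 679 became 769, 525 and 1421 with no filter, 441, 220 and 1184 with DESeq2, and 40, 3 and 58 against a fold of 2. With 4 libraries they were 2 after PM and 244 after LM, and with a library left out 58 to 104, 12 to 56 and 153 to 917. For the change from 24 h to DE(b), PM and LM, the counts of 76, 54 and 298 became 624, 518 and 904 with no filter, 258, 171 and 652 with DESeq2, 5, 5 and 53 against a fold of 2, and 39 to 53, 19 to 42 and 118 to 379 with a library left out. Scaling by DESeq2's size factors changed no count by over 1.5 times.

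With the replicate number as a block, 704 identifiers were called at 24 h and 701 with 8 libraries, 4823 between PPS and DE(a), 317 after DE(b), 120 after PM, 1046 after LM and 143, 97 and 487 for the changes to DE(b), PM and LM. Deviations of MPS and APS libraries with the same number had a correlation of 0.160 (136 pairs of conditions, median 0.0755, -0.0743 to 0.340), and nothing in the labels ties the numbers to a shared culture or day. The common dispersion, the spread between replicates that the model estimates, was 0.0611 without the block and 0.0454 with it. In the 8 libraries at 24 h it was 0.0640 without the block and 0.0397 with it. The block thus took up part of the spread. The fit without the block was kept, so variation shared by libraries of the same number stayed in its spread. Depth limited genes near 3 counts in a library, 0.130 to 0.147 CPM.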
